A study of Mus musculus with 1 sample.

Results

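The cells described here are barcodes of the mouse cerebral cortex gated as newborn excitatory neurons that still held transcripts of Eomes. They were taken from 1 sc-RNA Seq library of 11062 cell barcodes, of which 9018 had at least 1000 detected genes. The library came from the cortex of wild-type C57BL/6 mice at P0, the day of birth (the sample title speaks of telencephalic tissue). No transgene or agent is named for it, the labels do not give the number of animals, and a knock-in group of the series was not analysed here. Transcripts were counted by unique molecular identifiers (UMIs), so that PCR copies of 1 molecule count once. A barcode became a member if it had at least 1 UMI of Eomes and at least 2 UMIs of Neurod1, Sstr2 and Sema3c together. It could hold at most 1 UMI of the division genes Top2a, Mki67 and Cenpf together, at most 1 of the inhibitory genes Gad1 and Gad2 together, and at most 1 of Reln. The rule was met by 194 barcodes, 2.15% of those with 1000 genes (exact 95% binomial interval 1.86 to 2.47). They were set against 7203 excitatory neurons with no Eomes UMI and at least 2 UMIs of Neurod2 and Neurod6 together, called Eomes-zero neurons below.

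Excitatory neurons of the cortex arise from radial glia, either directly or through intermediate progenitors of the subventricular zone. Along this path proneural factors such as Neurog2 are switched on, the T-box factor Eomes marks the intermediate progenitor and its youngest daughters, and Neurod1 and the later NeuroD factors follow. The young neuron then leaves the cell cycle, migrates along radial glial fibres to the cortical plate and builds its axon and synapses. Eomes protein and RNA are known to decline during this migration.

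Levels are given as CPM, the UMIs of a gene summed over a set of cells per 1000000 of all their UMIs outside mitochondrial genes. With 1 library there was no replicate and therefore no test between cell sets. The ranges in brackets are 95% intervals (exact Poisson for a level, exact conditional for a ratio of levels, exact binomial for a share) and cover counting error only. The members held a median of 6992 UMIs and 3042 genes (lowest 2097 UMIs, highest 43524) and the Eomes-zero neurons a median of 9240 UMIs and 3517 genes. The median share of mitochondrial UMIs was 2.95% in the members and 3.30% in the Eomes-zero neurons. The whole library held 90346034 UMIs.

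The members were chosen by their UMIs of Eomes, Neurod1, Sstr2, Sema3c and the excluded genes. These values are described first, and nothing is supported with them. Eomes stood at 606 CPM in the members. It varied from 1 to 22 UMIs per member with a median of 3, and 57 members held 1 UMI, 48 held 2 or 3, and 89 held 4 or more. Neurod1, a bHLH factor of early neuronal differentiation, was at 170 CPM against 17.9 in the Eomes-zero neurons. Sstr2, a somatostatin receptor, was at 308 against 25.04 CPM, and Sema3c, a secreted semaphorin, at 266 against 46.7 CPM. Neurod2 and Neurod6, which selected the comparison cells, were at 551 and 673 CPM in the members and at 639 and 783 CPM in the Eomes-zero neurons. Of the members, 182 would have met that part of the comparison rule as well.

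Of the 9018 barcodes, 339 had Eomes (3.76%, 3.38 to 4.17), and 247 of these held at least 2 UMIs of Neurod1, Sstr2 and Sema3c. Among the 247, 23 exceeded the limit on division genes, 35 the limit on Gad genes and 2 the limit on Reln, and 7 exceeded more than 1 of them. On the outer side of the Eomes threshold, 1206 barcodes met every other part of the rule without an Eomes UMI, and 1186 of these were among the Eomes-zero neurons. An Eomes UMI was also found in 6 of 271 barcodes with at least 5 UMIs of Gad1 and Gad2 (2.21%, 0.817 to 4.76, median depth 7826 UMIs), cells that should lack it. Of these 271, 68 also held at least 2 UMIs of Neurod2 and Neurod6 (25.1%). In the 203 without them Eomes was found in 1 barcode (0.493%).

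The letters just before the start of Eomes, Neurod1 and Sema3c, genes of the rule, and of Neurog2, the factor at the head of the same cascade, are shown because the description of these cells turns on them. The 250 bases before the RefSeq start (GRCm38.p6, 5′ to 3′ on the strand of the gene, promoter region without transcribed bases) are printed for 4 genes. Capitals mark the run TATATAA, which resembles a TATA box. In Sema3c they mark CAGATG, an E-box that bHLH factors can bind. Each was searched on both strands.
Eomes, chr9:118477939-118478188, plus strand: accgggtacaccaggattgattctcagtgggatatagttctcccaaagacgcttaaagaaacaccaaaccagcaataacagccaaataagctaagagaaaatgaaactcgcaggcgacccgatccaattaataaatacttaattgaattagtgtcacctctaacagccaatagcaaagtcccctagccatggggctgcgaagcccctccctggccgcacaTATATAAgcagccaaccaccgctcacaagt
Neurod1, chr2:79456637-79456886, minus strand: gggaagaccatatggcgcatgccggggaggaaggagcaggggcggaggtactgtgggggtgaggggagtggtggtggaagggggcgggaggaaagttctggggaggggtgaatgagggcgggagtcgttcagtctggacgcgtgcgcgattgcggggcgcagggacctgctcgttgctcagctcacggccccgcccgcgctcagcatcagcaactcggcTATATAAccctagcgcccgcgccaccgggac
Neurog2, chr3:127632886-127633135, plus strand: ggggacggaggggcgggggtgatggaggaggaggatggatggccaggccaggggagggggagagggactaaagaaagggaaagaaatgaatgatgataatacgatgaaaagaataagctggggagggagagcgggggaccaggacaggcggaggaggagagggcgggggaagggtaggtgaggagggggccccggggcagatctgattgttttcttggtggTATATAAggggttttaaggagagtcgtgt
Sema3c, chr5:17574566-17574815, plus strand: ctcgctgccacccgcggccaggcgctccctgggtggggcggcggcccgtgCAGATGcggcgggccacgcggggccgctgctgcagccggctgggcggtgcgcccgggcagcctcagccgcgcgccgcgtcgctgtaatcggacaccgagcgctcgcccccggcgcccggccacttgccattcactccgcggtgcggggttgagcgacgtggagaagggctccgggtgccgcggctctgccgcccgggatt
TATATAA began 30 bases before the start in Eomes, 31 in Neurod1 and 29 in Neurog2. It was chosen after these sequences had been read, and 3.60% of 27025 genes hold it in such a window. CAGATG occurred in Sema3c and not in the other 3 windows, and 16.3% of genes hold it. The window of Sstr2, the fourth gene of the rule, held none of the 4 motifs searched and is not printed. CAGATG was in 0 of the 6 named higher genes with a window and in 4 of the 8 named lower genes. Neither CAGCTG (14.7% of genes) nor the T-box core TCACACC (3.84% of genes) occurred in the 4 windows. A match describes these letters and is not evidence of a bound site.

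The label was read beside Rnd2, a small GTPase of radial migration and the 1 marker of this cell type that the rule did not use. Rnd2 was listed as a marker with earlier results of these data known, so its level describes the members and is no independent check. Rnd2 was at 364 CPM (334 to 395) in the members and at 26.2 CPM in the Eomes-zero neurons, a ratio of 13.9 (12.6 to 15.3). After each cell had been thinned to 2000 UMIs, a Rnd2 UMI was present in 54.6% of members, 5.43% of Eomes-zero neurons and 6.97% of inhibitory cells, gated as 203 barcodes with at least 5 UMIs of Gad1 and Gad2 and at most 1 of Neurod2 and Neurod6. Without thinning the shares were 88.7%, 16.7% and 21.7%. The label did not hold equally for every member. In 12 members with fewer than 2 UMIs of Neurod2 and Neurod6, Neurog2 was at 783 CPM (607 to 995), Pax6 at 468 CPM (334 to 637) and Stmn2 at 140.3 CPM (72.5 to 245). A gate of radial glia or astrocytes had 1.41, 401 and 107 CPM of these genes. The summed level of Neurog2 in the 12 was thus above that of the gate. This did not hold cell by cell, as Neurog2 varied from 0 to 12 UMIs among the 12. There were 3 members rich in radial glia and astrocyte genes, 1 of them among these 12 and with 1 Neurog2 UMI. Another 17 barcodes were dividing and met the rest of the rule (dividing Eomes cells). In the 89 members with 4 or more Eomes UMIs, Neurog2, Mfng and Cdk6 were at 244, 188 and 588 CPM. The dividing Eomes cells had 274, 192 and 590 CPM of these genes. Pcp4 and Abca1 differed, at 412 and 234 CPM in the 89 against 133 and 45.7 CPM. Whether some members are progenitors between divisions was not tested.

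Markers of the other cell types that the suspension could hold were low. Of 7 microglial markers 6 were at 0 in the members, and the summed level of the list was 0.645 CPM. The summed levels of the lists for Cajal-Retzius cells, endothelial and mural cells, oligodendrocyte precursors and erythroid cells were 1.29, 7.74, 6.45 and 8.39 CPM in the members, against 24.3, 28.9, 23.0 and 117 CPM in the Eomes-zero neurons. Sox10, Rgs5, Trp73, Lhx1 and Lhx5 had 0 UMIs in the members. The 8 inhibitory markers summed to 32.9 CPM, against 46.4 CPM in the Eomes-zero neurons and 2296 CPM in inhibitory cells. The members were limited to 1 Gad UMI and the Eomes-zero neurons were not, and in Eomes-zero neurons with Igfbpl1 under the same limits the list summed to 18.7 CPM, below the members. No member held more than 3.32 UMIs of the inhibitory list per 10000.

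A group of members stood apart by depth. Of the 194 members, 18 held more than 13983 UMIs, which is 2 times the median, and these 18 carried 23.4% of all member UMIs. They carried 81.1% of the Mef2c UMIs, and each of the 18 had Mef2c. Mef2c, a transcription factor of maturing neurons, was at 3413 CPM in the 18 and at 243 CPM in the other 176. Stmn2, a microtubule regulator of growing axons, was at 2288 and 298 CPM, and Gap43, a growth cone protein, at 937 and 102 CPM. Cdk6 was at 80.0 CPM in the 18 and 492 CPM in the others, and Igfbpl1 at 1219 and 3304 CPM. In the Eomes-zero neurons Mef2c, Stmn2 and Gap43 were at 3941, 2868 and 1201 CPM. Whether these barcodes hold more than 1 cell was not tested, and values without them are given beside the results below that moved most. The 3 members rich in glial genes, 1 of them among the 18 and each with 1 Eomes UMI, held more than 100 UMIs of radial glia and astrocyte genes per 10000 and carried 49.2% of the Fabp7 UMIs of all members. The limits of 2 times the median and of 100 per 10000 leave 174 members.

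**Figure D1:**
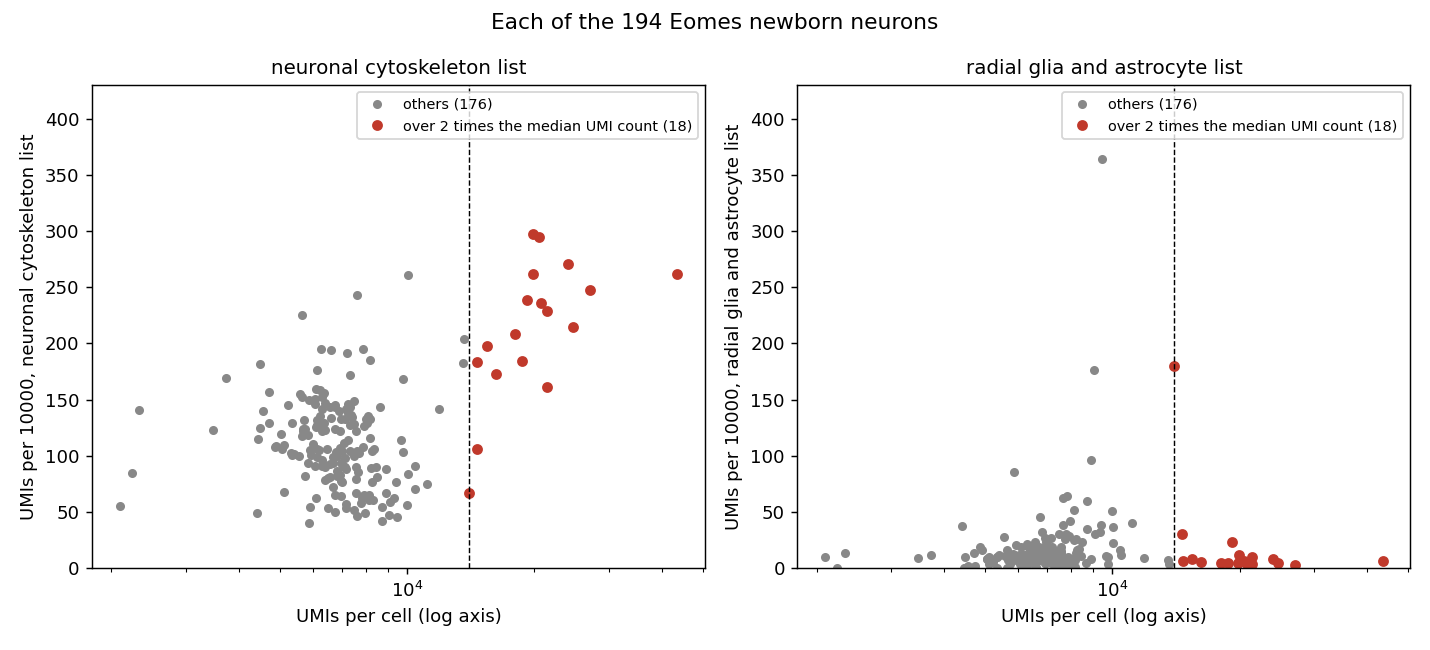
Each point is 1 of the 194 members, by its UMI count (log axis) and its UMIs per 10000 of the neuronal cytoskeleton list (left) or the radial glia and astrocyte list (right). The 18 members past 13983 UMIs (dashed line) are red, with 67.3 to 297 cytoskeletal UMIs per 10000. On the right, 3 members lie above 100 per 10000.

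Across the table, 9158 genes outside the rule and the mitochondrial genome had a mean of at least 10 CPM over the 2 cell sets. On the scale log2((CPM + 10)/(CPM + 10)), 396 of them (4.32%) were over 2-fold higher in the members and 416 (4.54%) over 2-fold lower, with a median of 0.06 over all 9158. These shares are the background against which each gene list below is read, and a call means only that the 2-fold line was passed in this library. Calls were more frequent over the same 9158 genes without barcodes past 2 times the median UMI count of their set, with 480 higher (5.24%) and 687 lower (7.5%), and list counts under that setting are read against these shares.

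The genes with the largest ratios in favour of the members, named by a rule of size, were Cdk6, Ezr, Rnd2, Mdk, Mfng, Mfap4, Neurog2, Ccnd2, Abca1, Pcp4, Celsr1 and Pax6. Ezr, which encodes ezrin and ties the membrane to actin, was at 284 CPM (259 to 312) against 13.9 CPM, a ratio of 20.5 (18.3 to 22.9). Mdk, which encodes the growth factor midkine, was at 675 against 57.2 CPM, a ratio of 11.8 (11.02 to 12.6). Both were found in most members: Mdk in 93.8% and Ezr in 73.7%, against 35.2% and 9.19% of Eomes-zero neurons, and against 28.6% and 23.6% of inhibitory cells (thinned 68.0% and 43.8% of members, 11.3% and 2.67% of Eomes-zero neurons, 19.9% and 15.4% of inhibitory cells). Mfap4, a protein of the extracellular matrix, was at 108 against 2.01 CPM. Abca1, a cholesterol exporter, was at 155 against 8.18 CPM, and Celsr1, a planar polarity cadherin, at 107 against 5.26 CPM. Pcp4, a calmodulin-binding peptide, was at 420 against 45.9 CPM. Among these 12 genes, Ezr, Abca1, Celsr1, Ccnd2 and Pax6 were higher still in a gate of radial glia or astrocytes, at 367, 264, 163, 938 and 401 CPM, whereas Pcp4 and Mfng were at 4.23 and 2.82 CPM there. Ezr and Mdk were at 370 CPM (294 to 460) and 764 CPM (652 to 889) in the dividing Eomes cells. These intervals overlap those of the members. Pcp4 and Abca1 were lower in the dividing Eomes cells, at 133 and 45.7 CPM.

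In the other direction the rule named Meg3, Gucy1a3, Tenm2, Adcy1, Dync1i1, Nrgn, Caln1, Rian, Mef2c, Gap43, Runx1t1 and Lpl. Meg3, a long noncoding RNA of the imprinted Dlk1-Dio3 region, was at 507 CPM (472 to 543) against 2289 CPM, a ratio of 0.221 (0.206 to 0.237). Rian, from the same region, was at 27.1 against 141 CPM. Nrgn, a postsynaptic calmodulin-binding protein, was at 72.3 against 332 CPM, and Dync1i1, a dynein chain of axonal transport, at 57.4 against 272 CPM. The adhesion protein Tenm2 was at 76.1 against 357 CPM. Among the genes named here, all 12 were lower again without the 18 deep members. Meg3 went from 507 to 222 CPM, Nrgn from 72.3 to 15.2 CPM, Tenm2 from 76.1 to 38.8 CPM, Adcy1 from 28.4 to 11.8 CPM, Rian from 27.1 to 16.01 CPM and Runx1t1 from 107 to 27.8 CPM. Gucy1a3, a subunit of the nitric oxide receptor guanylate cyclase, went from 80.0 to 19.4 CPM, Dync1i1 from 57.4 to 13.5 CPM, Caln1 from 32.3 to 5.05 CPM and Lpl from 78.7 to 17.7 CPM.

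**Figure D2:**
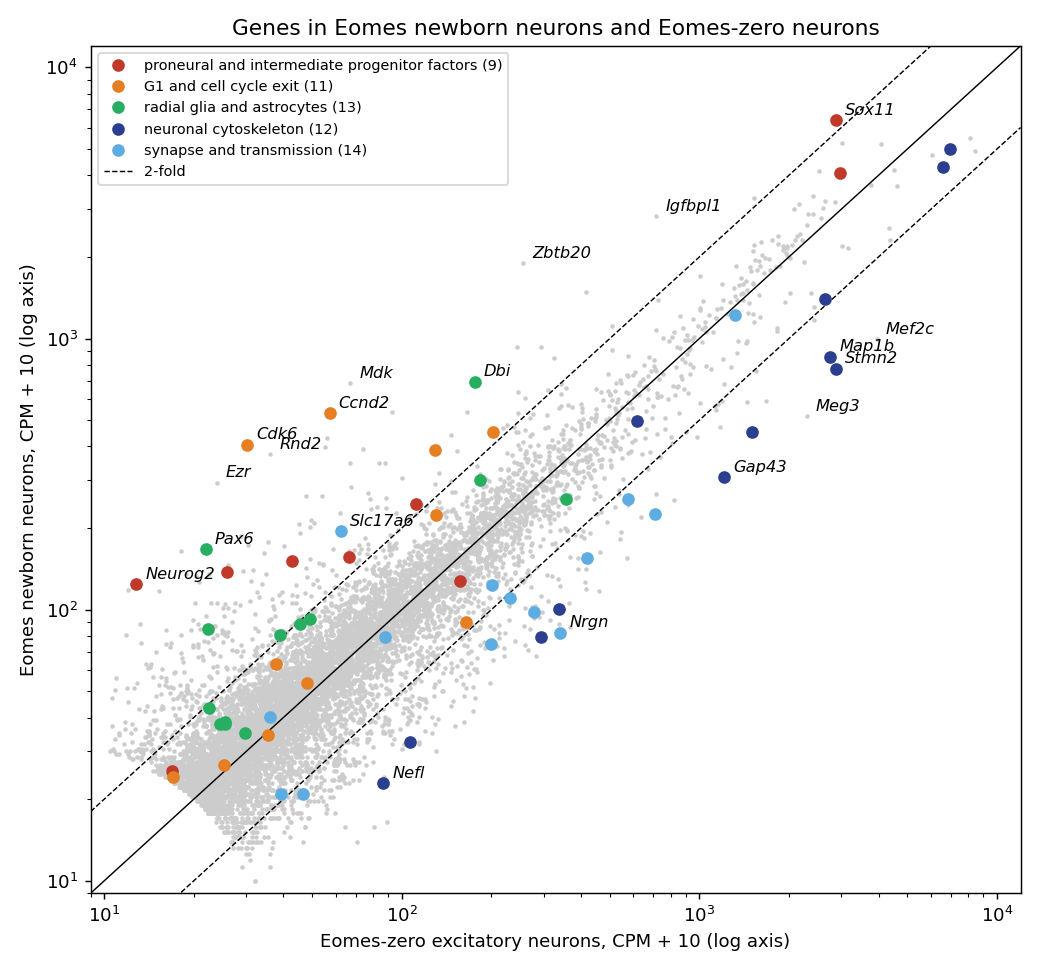
Each point is 1 of 9158 genes, by its level in the Eomes-zero neurons (x) and in the members (y), both as CPM + 10 on log axes, with 5 gene lists coloured. Cdk6, Mdk, Neurog2 and Pax6 lie above the upper 2-fold line, and Mef2c, Gap43 and Stmn2 lie below the lower one.

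Of 12 listed proneural and intermediate progenitor factors 9 passed the filter, 6 of the 9 were over 2-fold higher in the members and 0 over 2-fold lower, with a median of 1.15. Neurog2, the bHLH factor that starts the cascade, was at 114 CPM (98.0 to 132) against 2.84 CPM, a ratio of 40.2 (32.7 to 49.4). It was nonetheless found in only 50 of 194 members (25.8%, 19.8 to 32.5), with a lowest and median value of 0 and a highest of 13.9 UMIs per 10000. Thinned, its share was 13.4% in members, 0.657% in Eomes-zero neurons and 0.995% in inhibitory cells. Neurod4 had 10 UMIs in the members and 1 UMI in the Eomes-zero neurons, a ratio of 473 with an interval from 67.2 to 20511. Neurog1 had 0 UMIs in both sets.

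The zinc finger factor Insm1, which drives progenitors away from the ventricle, was at 147 against 56.4 CPM (ratio 2.61, 2.27 to 2.98). Its partner in repression Rcor2 was at 141 against 32.8 CPM (4.31, 3.74 to 4.96). The antiproliferative gene Btg2, a mark of progenitors that will make neurons, was at 128 against 15.95 CPM (8.01, 6.86 to 9.32). After thinning, Btg2 was found in 18.04% of members and in 38.34% of the radial glia or astrocyte gate (unthinned 38.14% and 63.78%). Its presence was therefore not specific to the members. The SoxC factors of early neuronal differentiation were high in both sets. Sox11 was at 6382 against 2875 CPM (2.22, 2.17 to 2.27) and Sox4 at 4067 against 2964 CPM (1.37, 1.34 to 1.41), while Sox12 was at 117 against 146 CPM. Every member had Sox11, with a median of 72.7 and a highest value of 150.0 UMIs per 10000.

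The Notch pathway, through which neighbouring progenitors and neurons hold each other in or out of the progenitor state, was represented by single members. Of 18 listed genes 10 passed the filter, 4 were over 2-fold higher and 0 lower. These 4 were the ligand Dll3 (45.8 against 6.17 CPM), the receptor Notch1 (59.4 against 8.05 CPM), the feedback gene Nrarp (24.5 against 4.19 CPM) and Mfng. Thinned, Notch1 was found in 12.4% of members, 58.8% of dividing Eomes cells and 60.6% of the radial glia or astrocyte gate. Nrarp was found in 3.61% of members and 25.4% of that gate, and Dll3 in 9.79 and 0.518%. Mfng, the glycosyltransferase Manic fringe that modifies Notch receptors, was at 117 against 2.70 CPM, a ratio of 43.4 (35.3 to 53.4). Its relatives Lfng and Rfng were at 1.94 and 25.8 CPM in the members and at 2.61 and 40.7 CPM in the Eomes-zero neurons. The target gene Hes5, a repressor of neuronal differentiation, was at 23.9 CPM in the members, 14.1 CPM in the Eomes-zero neurons and 857 CPM in the radial glia or astrocyte gate. Dll1, the ligand best known from this lineage, had 13 UMIs in the members (8.39 CPM against 4.94 CPM).

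Among genes of the G1 phase and of cell cycle exit, 4 of the 11 that passed the filter were over 2-fold higher in the members, 0 were over 2-fold lower and the other 7 lay within the 2-fold lines. Cdk6, a G1 kinase, was at 396 CPM (365 to 428) against 20.3 CPM, a ratio of 19.5 (17.7 to 21.5). Its cyclin partner Ccnd2 was at 521 against 47.2 CPM (11.1, 10.2 to 11.9), and Cdk4 at 443 against 193 CPM (2.30, 2.13 to 2.48). The inhibitor Cdkn1b, which holds cells out of the cycle, was higher too, at 378 against 120 CPM (3.15, 2.90 to 3.43), whereas Cdkn1c was at 80.0 against 154 CPM. The median of Cdkn1b per cell was 3.59 UMIs per 10000 in the members and 3.64 in the dividing Eomes cells (thinned shares 51.55 and 29.4%). Cdk6 was found in 85.1% of members with a median of 3.85 UMIs per 10000 and a highest of 28.3. After thinning it was found in 49.5% of members, 3.74% of Eomes-zero neurons and 6.97% of inhibitory cells. The dividing Eomes cells had more Cdk6 than the members, at 590 CPM (492 to 701). Their thinned share was 70.6% (44.0 to 89.7).

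Genes of the later phases of the cycle were mostly too low to pass the filter. Of 12 S phase genes 5 passed the filter, and 0 of the 5 lay past 2-fold in either direction. Pcna, the replication clamp, was at 16.8 CPM in the members and 18.3 CPM in the Eomes-zero neurons, against 73.2 CPM in 17 dividing cells that met the rest of the rule. Of 12 mitosis genes only Hmgb2, a chromatin protein, passed the filter, over 2-fold higher in the members at 138 against 42.7 CPM. Ccnb1 and Aurkb had 0 UMIs in the members and were at 270 and 146 CPM in the dividing Eomes cells. The limit on Top2a, Mki67 and Cenpf had removed dividing barcodes, so a low level of mitosis genes follows in part from the rule.

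Of 14 listed genes of radial glia and astrocytes 13 passed the filter, 4 were over 2-fold higher in the members, 0 were lower and 9 lay within the 2-fold lines. Without barcodes past 2 times the median UMI count in both sets, 6 were over 2-fold higher (5.24% of all genes). Pax6, the transcription factor of radial glia that precedes Eomes, was at 157 CPM (138 to 178) against 11.95 CPM, and at 401 CPM in the radial glia or astrocyte gate. After thinning it was found in 25.3% of members, 2.44% of Eomes-zero neurons and 18.9% of inhibitory cells, and without thinning in 58.2% of members and 7.82% of Eomes-zero neurons. Sox2, a progenitor factor, was at 74.8 against 12.3 CPM, and was found in 27.8% of members, 5.61% of Eomes-zero neurons and 67.0% of inhibitory cells (thinned 9.79%, 1.83% and 40.3%). Dbi, a binding protein for acyl-CoA, was at 682 against 166 CPM, and at 666 CPM in the 174 members. Vim and Fabp7, an intermediate filament and a lipid carrier of radial glia, were at 71.0 and 291 CPM in the members, which became 50.5 and 179 CPM in the 174. The Eomes-zero neurons had 29.0 and 173 CPM of these genes and the glial gate 1923 and 19575 CPM. Aldoc went from 27.7 CPM to 5.99 CPM in the 174 members, against 15.5 CPM in the Eomes-zero neurons.

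Genes of migration split within their list. Of 21 listed genes 18 passed the filter, 4 were over 2-fold higher and 3 lower, with a median of -0.09. Beside Rnd2, the higher ones were its relative Rnd3 (75.5 against 22.0 CPM), the netrin receptor Unc5d (382 against 64.0 CPM, ratio 5.97, 5.47 to 6.50) and Lrp8. Lrp8, a receptor for the guidance protein Reelin, was at 526 against 156 CPM (3.37, 3.13 to 3.62). The other Reelin receptor Vldlr was lower, at 43.2 against 119 CPM (0.363, 0.281 to 0.462), as was the adaptor Dab1 below both receptors, at 95.5 against 356 CPM (0.268, 0.227 to 0.315). Dab1 was found in 29.4% of members and 83.1% of Eomes-zero neurons (thinned 9.79% and 46.9%). Cnr1, a cannabinoid receptor of axon growth, was at 149.7 against 401 CPM. Dcx, the microtubule protein that marks migrating neurons, was at 980 against 906 CPM and was found in 98.5% of members.

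Partners of the genes in the rule showed no common direction. Of 13 semaphorin receptors and CRMPs 11 passed the filter, 0 were over 2-fold higher and 1, the CRMP gene Dpysl3 at 751 against 1536 CPM, was over 2-fold lower. Without barcodes past 2 times the median UMI count of their set, 3 were over 2-fold lower (7.5% of all genes). The receptor Nrp1 was at 89.7 against 104 CPM. Nrp2 had 18 UMIs in the members, 11.6 against 1.38 CPM (8.42, 4.799 to 14.0), but its mean lay below the filter. Beside Sstr2, the other somatostatin receptors Sstr1 and Sstr3 had 4 UMIs and 1 UMI in the members and Sstr4 and Sstr5 had 0. Of the G proteins through which these receptors act, Gnai2 was at 220 against 117 CPM and Gnai1 and Gnao1 at 67.8 and 186 against 128 and 349 CPM, within the 2-fold lines. Without barcodes past 2 times the median UMI count in both sets, Gnai2 was over 2-fold higher and the channel gene Kcnj3 over 2-fold lower.

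Factors shared by excitatory neurons of the cortex were also divided. Of 14 listed genes all 14 passed the filter, 5 were over 2-fold higher and 1 lower. The nuclear factor I genes Nfia and Nfib were at 623 and 3301 CPM against 235 and 1517 CPM, the third, Nfix, at 2860 against 2394 CPM. Lhx2 was at 594 against 250 CPM, Myt1 at 65.8 against 12.3 CPM and Emx2, a factor of cortical patterning, at 40.0 against 8.85 CPM. After thinning, Nfia was found in 69.6% of members, 82.35% of dividing Eomes cells and 87.6% of the radial glia or astrocyte gate. In that order the shares were 99.0, 100 and 88.1% for Nfib and 73.7, 52.9 and 54.9% for Lhx2. They were 4.64, 17.65 and 8.81% for Emx2 and 12.4, 0 and 0% for Myt1. The thinned 0% of Myt1 in the 17 dividing cells allows up to 19.5%. Unthinned, Myt1 was found in 40.2, 70.6 and 0.510% in the same order, so the thinned 0% does not show that the dividing cells lack it. Tbr1, which follows Eomes in the same lineage, was at 198 CPM (177 to 222) against 114 CPM, a ratio of 1.74 (1.55 to 1.95). Mef2c was the lower gene of the list at 985 CPM (936 to 1035) against 3941 CPM, and the median per cell was 1.42 UMIs per 10000 in the members and 32.8 in the Eomes-zero neurons. Without barcodes past 2 times the median UMI count in both sets, 4 of the 14 were over 2-fold lower (7.5% of all genes).

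Among upper-layer factors 2 of 10 were over 2-fold higher and 2 lower, with a median of 0.01. The POU factor Pou3f2 was at 1099 against 497 CPM and its relative Pou3f3 at 899 against 498 CPM. Igfbpl1, a secreted protein of young neurons, was at 2816 CPM (2733 to 2901) against 707 CPM. It was found in 99.5% of members and 78.3% of inhibitory cells (thinned 97.9% and 59.2%). Inhba, a subunit of the secreted factor activin A, was lower at 36.8 against 107 CPM (0.342, 0.259 to 0.444), and Cux1 and Cux2 were at 256 and 101 against 255 and 98.8 CPM. Without the 18 deep members Inhba was at 8.42 CPM and Rorb, a layer IV factor, went from 96.8 to 33.7 CPM.

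Deep-layer factors lay mainly on the lower side. Of 13 listed genes 12 passed the filter, 0 were over 2-fold higher and 7 over 2-fold lower, with a median of -1.14. Bcl11b, a factor of subcortical projection neurons, was at 65.8 against 179 CPM (0.367, 0.299 to 0.446). Tle4 was at 60.6 against 161 CPM, Hs3st4, a heparan sulfate enzyme of layer VI, had a ratio of 0.166 (0.113 to 0.235) to 121 CPM, and Nr4a2, a factor of the subplate, had 9 UMIs in the members (5.81 against 70.5 CPM). Foxp2 was at 61.9 against 62.1 CPM. Without barcodes past 2 times the median UMI count in both sets, 8 were over 2-fold lower, with a median of -1.46.

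Genes of the neuronal cytoskeleton and the synapse lay mainly on the lower side. All 12 cytoskeletal genes passed the filter, 8 were over 2-fold lower and 0 higher, with a median of -1.72. Map1b and Mapt, microtubule proteins of the axon, were at 848 and 441 CPM against 2742 and 1491 CPM. Stmn2 was at 764 CPM (721 to 809) against 2868 CPM, a ratio of 0.266 (0.251 to 0.282). Gap43 was at 297 CPM (271 to 326) against 1201 CPM, a ratio of 0.248 (0.226 to 0.272). The neurofilament genes Nefl and Nefm were at 12.9 and 22.6 against 76.6 and 96.3 CPM. The earlier tubulin genes differed less, with Tubb3 at 1389 against 2627 CPM and Tubb2b at 4270 against 6558 CPM. After thinning, Stmn2 was found in 39.2% of members, 92.9% of Eomes-zero neurons and 87.6% of inhibitory cells (unthinned 67.0%, 97.1% and 95.1%).

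Of 15 synaptic genes 14 passed the filter, 8 were over 2-fold lower and 1 higher, with a median of -1.11. Nrgn, Syt4, Camk2b, Grin2b, Syt1, Grin1 and Snap25 were among the lower ones. Snap25, part of the vesicle fusion machinery, had a ratio of 0.454 (0.385 to 0.532) to its 220 CPM in the Eomes-zero neurons, and Grin2b, an NMDA receptor subunit, was at 144 against 409 CPM. The higher gene was Slc17a6, the vesicular glutamate transporter VGLUT2, at 184 CPM (164 to 207) against 52.5 CPM (3.51, 3.104 to 3.96). Its relative Slc17a7 was at 10.97 against 29.2 CPM. Slc17a6 was found in 67.5% of members, 32.7% of Eomes-zero neurons and 2.46% of inhibitory cells (thinned 32.5%, 10.9% and 0.498%). The AMPA receptor gene Gria2 was at 1209 against 1310 CPM. Without barcodes past 2 times the median UMI count in both sets, 9 cytoskeletal and 9 synaptic genes were over 2-fold lower, with medians of -2.56 and -1.43.

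**Figure D3:**
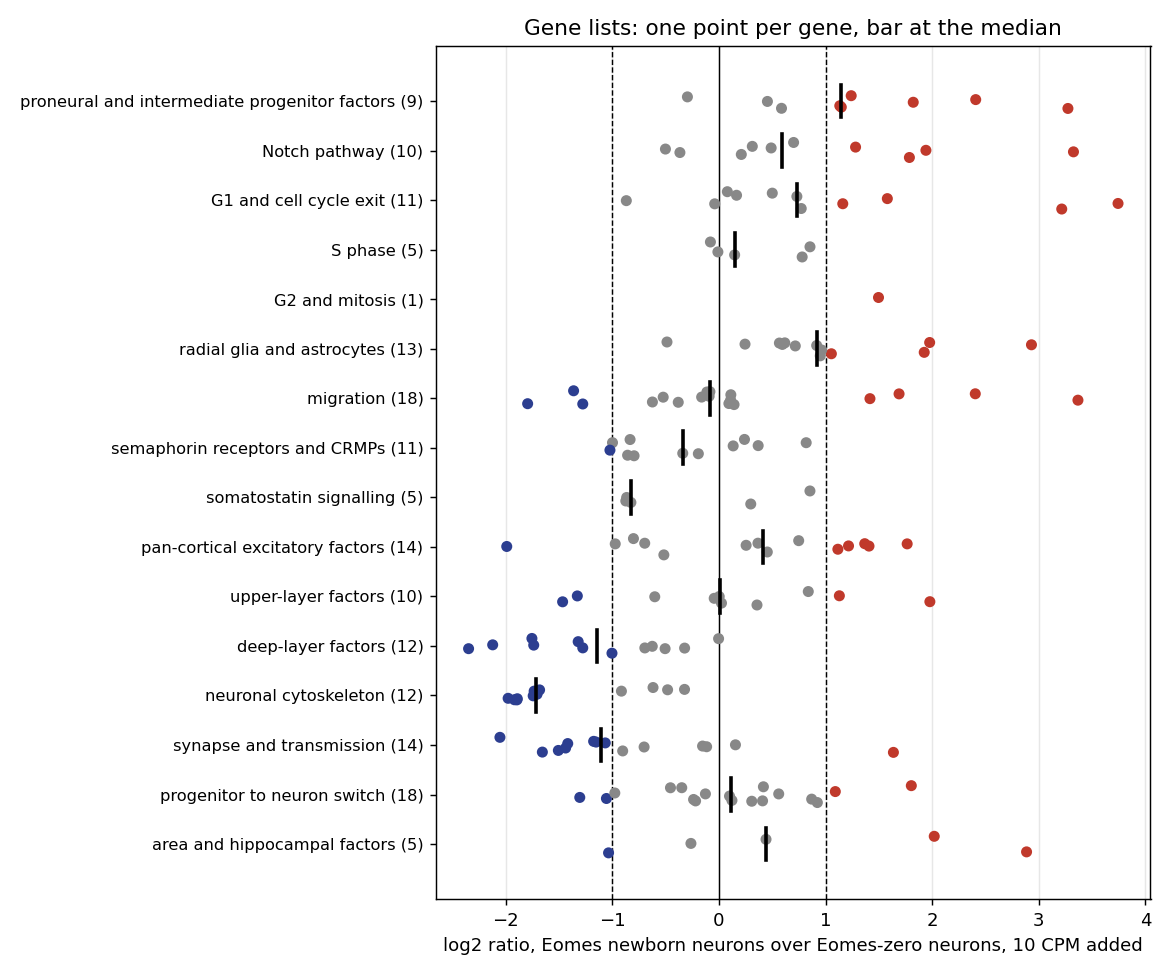
Each point is a listed gene that passed the filter, by its log2 ratio of members over Eomes-zero neurons with 10 CPM added. Black bars are medians, dashed lines mark 2-fold, red and blue points lie past them, and the number of genes is in brackets. The cytoskeleton list has its median at -1.72 and the proneural list at 1.15.

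Regulators that change between progenitors and neurons were mixed. Of 21 listed genes 18 passed the filter, 2 were over 2-fold higher and 2 lower. The neuronal RNA-binding genes Elavl4 and Elavl2 were higher, at 259 and 471 against 67.1 and 216 CPM. Their medians per cell were 1.94 and 4.12 UMIs per 10000 in the members and 4.02 and 8.11 in the dividing Eomes cells. Thinned shares were 36.1 and 61.9% in the members and 47.1 and 58.8% in the dividing Eomes cells. Their relative Elavl3 was at 652 against 833 CPM. The chromatin remodelling subunits of neurons Actl6b and Dpf1 were lower, at 58.1 and 52.3 against 131 and 144 CPM, and the progenitor counterpart Actl6a was at 91.6 against 45.6 CPM. Ptbp1, a splicing repressor of progenitors, was at 38.7 against 23.0 CPM, and its neuronal successor Ptbp2 at 268 against 250 CPM.

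Of 9 factors of cortical areas and the hippocampus 5 passed the filter, 2 were over 2-fold higher and 1 lower. Zbtb20, a zinc finger factor of the hippocampus and of glia, was at 1884 CPM (1816 to 1954) against 246 CPM (7.65, 7.35 to 7.96). Every member had it, with a lowest, median and highest value of 3.12, 19.3 and 46.2 UMIs per 10000. The median was 20.4 per 10000 in the radial glia or astrocyte gate and 21.3 in the dividing Eomes cells. A Zbtb20 UMI was found in every cell of both. Dmrta2, a patterning factor of the medial cortex, was at 74.8 against 10.9 CPM. Prox1, a factor of dentate granule cells, had 22 UMIs in 17 members, of which 16 had 4 or more Eomes UMIs. Prox1 was also found in inhibitory cells, in 22.2% of them against 8.76% of members (thinned 10.45% and 2.58%). In these 17 members Btg2 was at 422 CPM and Neurog2 at 403 CPM, against 175 and 198 CPM in the members with 4 or more Eomes UMIs and no Prox1. Whether the hippocampus was part of the dissected tissue is not given in the sources used here. Glo1 and Hagh, the enzymes that break down methylglyoxal, were at 55.5 and 33.6 CPM in the members and at 44.8 and 33.5 CPM in the Eomes-zero neurons.

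The place of the members in the lineage was described by their levels beside 4 other cell sets gated in the same library. These were 196 non-dividing radial glia or astrocytes (at least 5 UMIs of Slc1a3 and Aldoc, no Eomes, at most 1 UMI of Neurod2 and Neurod6), the 17 dividing Eomes cells (at least 2 UMIs of the division genes), and Eomes-zero neurons within the limits of the members, 5014 with at least 2 UMIs of Igfbpl1 and 1865 with fewer. Neurog2 was at 1.41, 274, 114, 3.70 and 0.915 CPM in the order radial glia or astrocytes, dividing Eomes cells, members, Igfbpl1 neurons and neurons without it. It was highest in the dividing cells (209 to 353, from 60 UMIs), above the interval of the members. Mfng was at 2.82, 192, 117, 2.51 and 1.30 CPM, again highest in the dividing cells (138 to 260). Pax6 was highest in the radial glia or astrocytes and lower in each following set, at 401, 329, 157, 12.1 and 6.65 CPM, but the intervals of the first 2 sets overlap. Rnd2 was at 16.2, 284, 364, 29.6 and 18.3 CPM and Unc5d at 24.7, 133, 382, 86.4 and 19.2 CPM, both with their highest value in the members. For Rnd2 the intervals of the members (334 to 395) and the dividing cells (217 to 363) overlap. Stmn2 was at 107, 604, 764, 2442 and 3807 CPM. Without the 18 deep members it was at 298 CPM in the members, below the dividing cells, and Mef2c, Gap43 and Map1b also went from above the dividing cells (818, 279 and 663 CPM) to below them (243, 102 and 395 CPM). No deep barcodes were taken out of the dividing cells, which had a median of 12255 and a highest of 34746 UMIs. This order therefore rests on a limit set on 1 side. Median UMIs per 10000 in all members and in the dividing cells were 1.545 and 1.32 for Stmn2 and 1.42 and 1.24 for Mef2c. They were 2.09 and 2.03 for Map1b and 0 and 0.673 for Gap43. For Ccnd2 the inhibitory gate, at 1623 CPM, was above every one of these 5 sets.

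**Figure D4:**
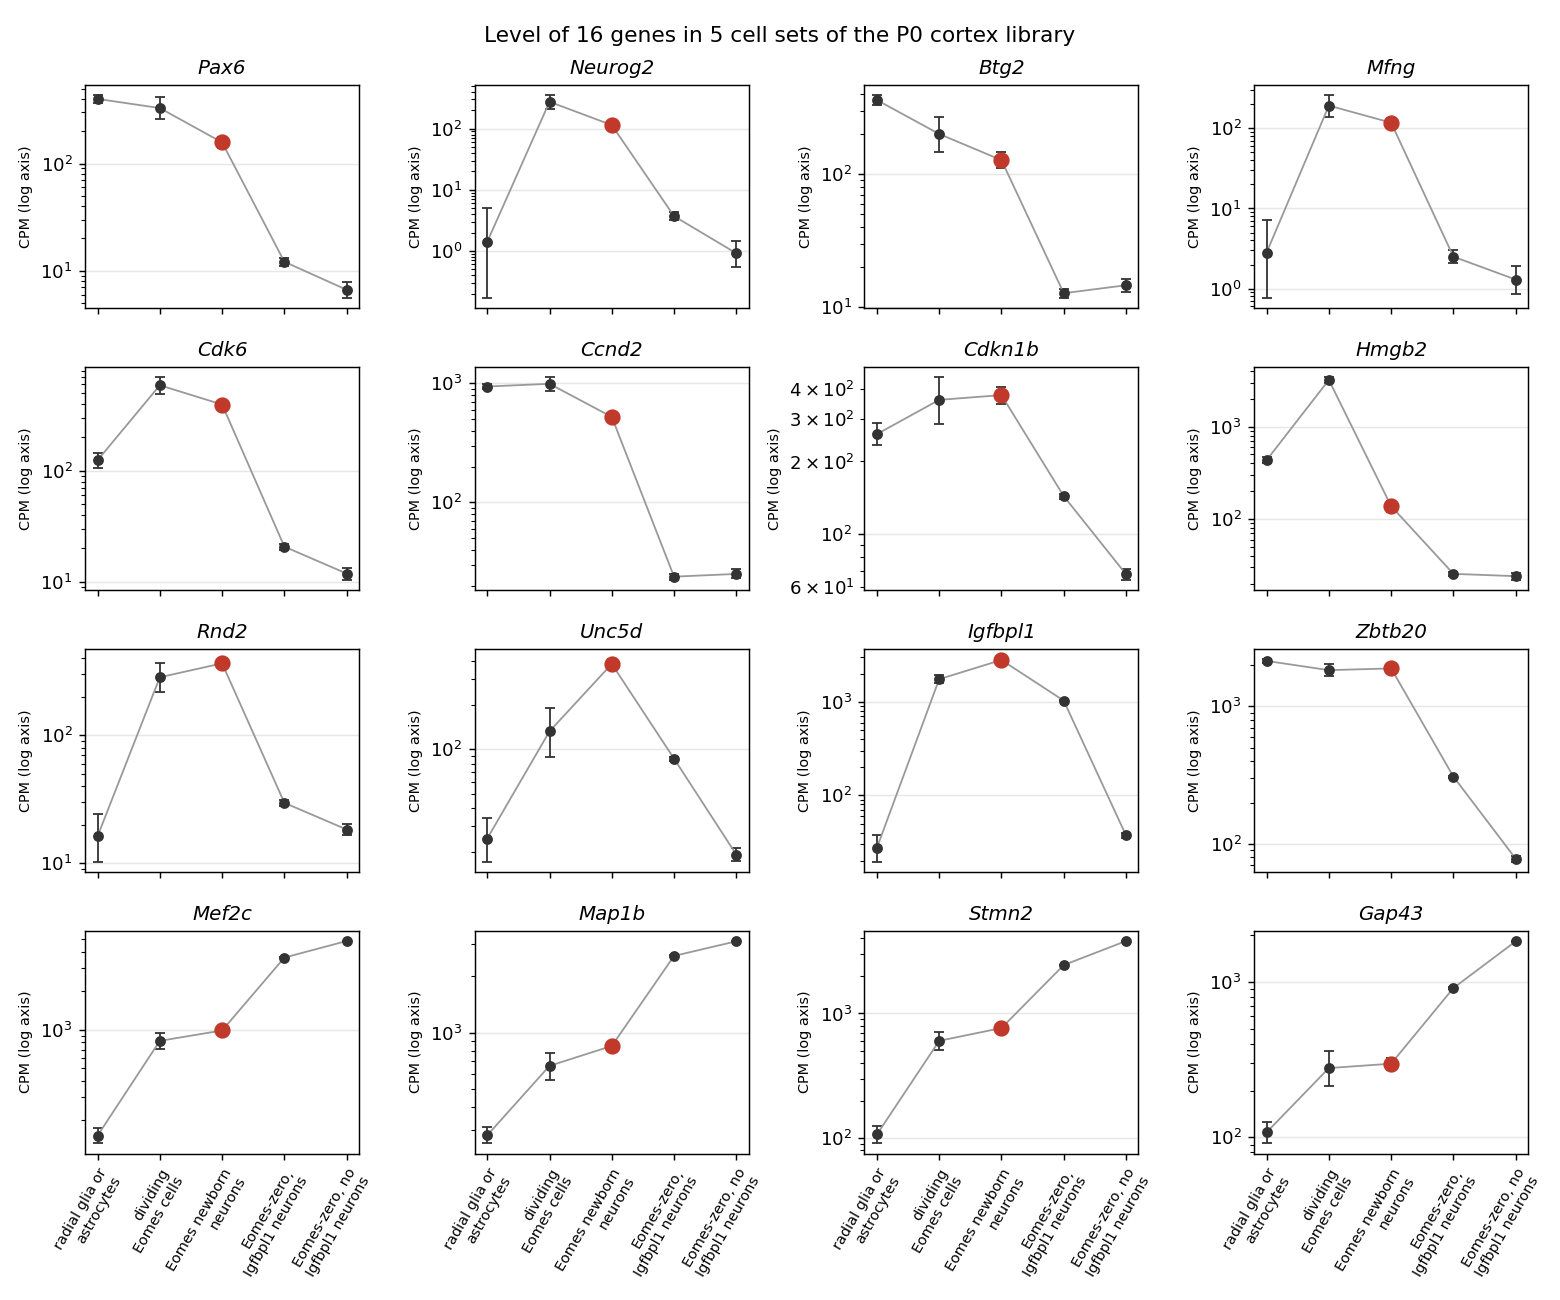
Levels (CPM, log axis) of 16 genes in 5 cell sets, with exact 95% Poisson intervals for counting error. The members are red. Neurog2 and Mfng are highest in the dividing Eomes cells, Rnd2 and Unc5d in the members, and Stmn2 and Gap43 in the Eomes-zero neurons without Igfbpl1. Igfbpl1 itself separates the last 2 sets by their gates.

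The members were also set against the 17 dividing Eomes cells alone, which the limit on Top2a, Mki67 and Cenpf separates from them. The 6 genes named on the lower side are known from division. Hist1h2ap and Hist1h1b, histone genes of S phase, were at 28.4 and 5.81 CPM in the members and at 3891 and 1390 CPM in the dividing cells. Cks2, Cdca8 and Cenpa, genes of mitosis, were at 3.23, 3.23 and 6.45 against 581, 553 and 622 CPM. Pbk, a mitotic kinase, had 0 UMIs in the members, which allows up to 2.38 CPM, against 402 CPM (323 to 496) in the dividing cells. On the higher side the rule named Islr2, Stac2, Tmem243, Ist1, Socs2 and Calcoco1, with 0 to 2 UMIs each in the dividing cells. Islr2, a membrane protein of axon growth, was at 132 CPM in the members against 9.14 CPM (ratio 14.4, 3.93 to 119.7), and at 133 CPM in the Eomes-zero neurons. The 17 cells allow only such wide intervals.

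The members varied among themselves along with Eomes. In the 174 members, Neurog2 was at 0 CPM (up to 12.4) with 1 Eomes UMI, at 3.62 CPM (0.0916 to 20.2) with 2 or 3 and at 256 CPM (217 to 300) with 4 or more. In all 194 members 45 of the 50 with Neurog2 had 4 or more Eomes UMIs. Btg2 was at 20.1, 61.5 and 230 CPM, Celsr1 at 23.5, 68.7 and 194 CPM, Cdk6 at 251, 387 and 675 CPM, Mdk at 526, 669 and 1043 CPM and Elavl4 at 141, 213 and 406 CPM. The opposite order held for Neurod2 at 878, 611 and 333 CPM, for Unc5d at 590, 525 and 315 CPM, for Nrp1 at 164, 134 and 30.3 CPM and for Tubb3 at 1663, 1335 and 744 CPM. Rnd2 changed little, at 466, 528 and 395 CPM. The 3 classes had median depths of 6280, 6490 and 7346 UMIs. Since a deeper barcode holds more Eomes UMIs, part of this order can come from depth, which was not tested.

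The rule gene Sema3c also had the opposite order, at 479, 376 and 207 CPM, while Sstr2 was at 426, 347 and 360 CPM. Each member needed 2 UMIs of the 3 genes together, and this can shift their levels between classes. In all members Dbi was at 532 CPM with 1 Eomes UMI, which became 147 CPM in the 174 members, and at 1060 and 1146 CPM with 4 or more. Mef2c was at 1190, 1357 and 648 CPM over the 3 classes in all members and at 251, 434 and 155 CPM in the 174. The 18 deep members were divided equally, 6 in each Eomes class.

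**Figure D5:**
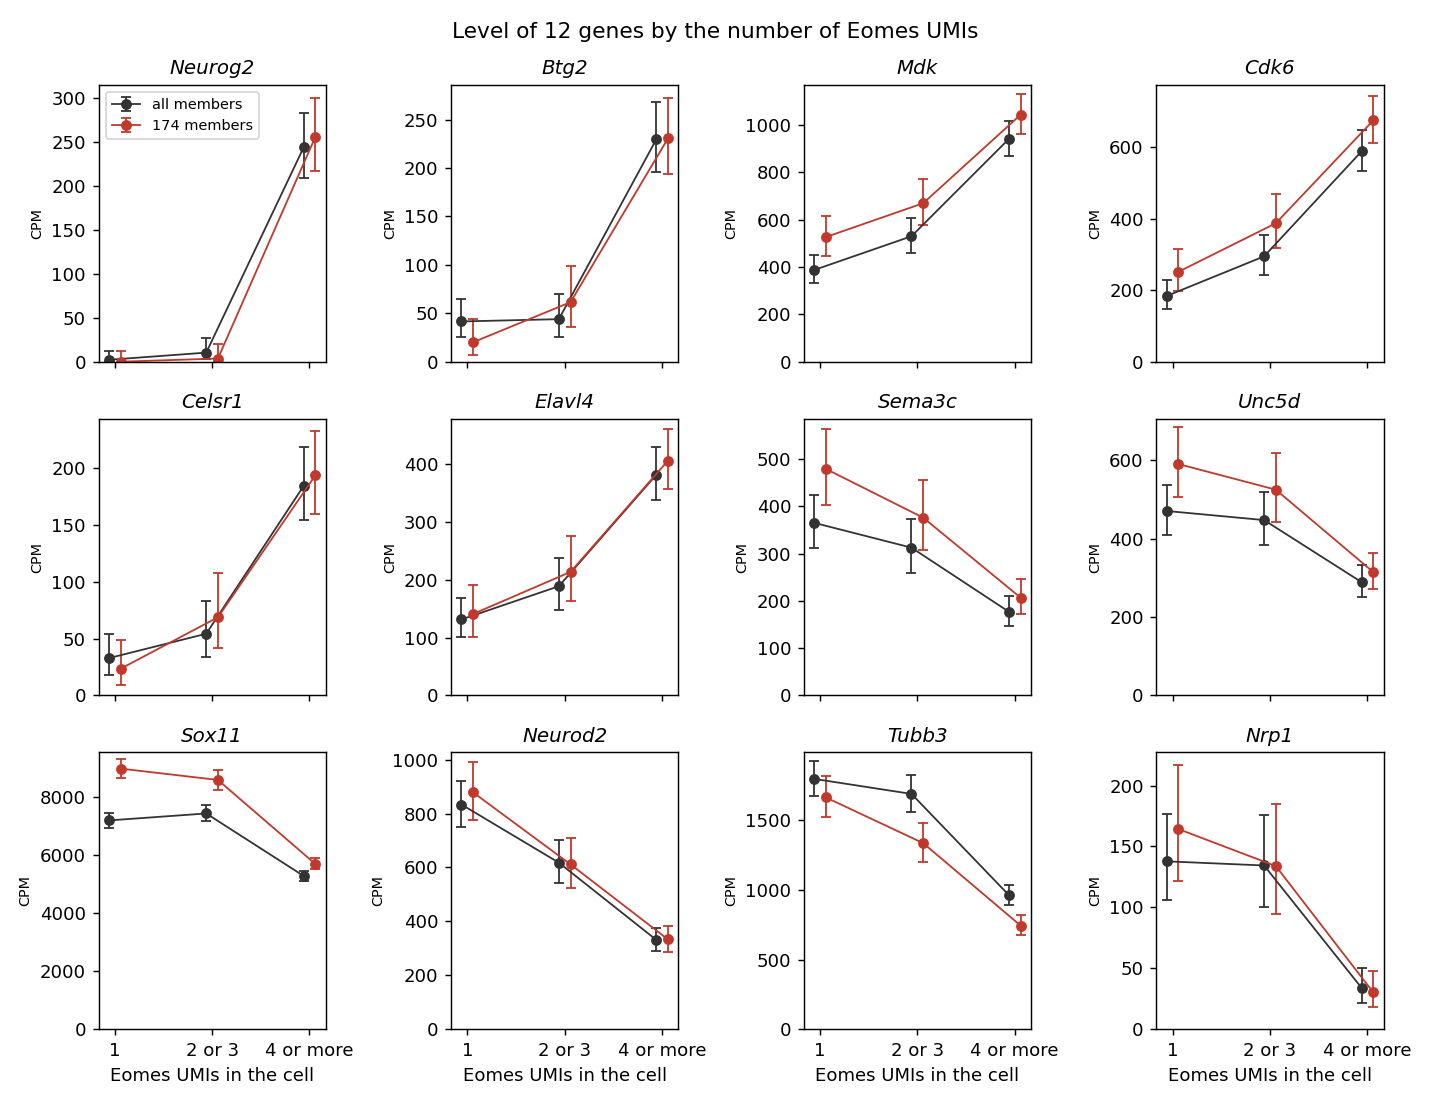
Levels (CPM) of 12 genes in members with 1, 2 or 3, and 4 or more Eomes UMIs, with exact 95% Poisson intervals, for all members (black) and for the 174 members left after the deep and the glial barcodes were removed (red). Neurog2 reaches 256 CPM in the last class of the 174 and Neurod2 goes from 878 to 333 CPM.

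A Mef2c UMI was found in 119 members (61.3%), among them the 18 deep ones, and in 59.7% of the radial glia or astrocyte gate. Thinned, the shares were 35.1% of members (28.4 to 42.2) and 21.2% of the gate (15.7 to 27.7). The level was 3413 CPM in the 18, 243 CPM in the other members and 151 CPM in the gate. The median per cell was 1.42 UMIs per 10000 in all members and 1.17 in the gate. The level thus set apart mainly the 18. In the 12 members with fewer than 2 UMIs of Neurod2 and Neurod6, Btg2 was at 666 CPM.

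Values just outside the thresholds are given as a description. The 1206 barcodes without Eomes that met the other parts of the rule had Rnd2 at 82.5 CPM, Cdk6 at 55.2 CPM, Unc5d at 221 CPM, Igfbpl1 at 1623 CPM and Neurog2 at 7.17 CPM. The 57 members with 1 Eomes UMI had 324, 184, 470.3, 2520 and 2.19 CPM of these genes, and Eomes-zero neurons with the limits of the members and fewer than 2 UMIs of Neurod1, Sstr2 and Sema3c had 14.7, 10.6, 34.6, 550.4 and 1.98 CPM. For these genes other than Neurog2 the barcodes just outside thus lay between the 2 other sets. On the outer side of the other threshold, 69 barcodes with Eomes and 0 or 1 UMIs of the 3 genes had Neurog2 at 126 CPM, Ccnd2 at 656 CPM and Mef2c at 2830 CPM. The 20 members with exactly 2 UMIs of the 3 genes had 131, 580 and 991 CPM.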

How the data were processed

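The 1 wild-type library was made by papain dissociation and 10x Chromium 3′ chemistry. The deposited values are raw UMI counts per gene and barcode, made by the authors before any normalization. The submitters' processing notes name Cell Ranger 2, STAR, Seurat and mm9 without a role, and the annotation is not given in the sources used here. Every value column was mapped to this sample.

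Barcodes with at least 1000 detected genes were gated on raw counts. The members, the comparison set and the gene lists were chosen with earlier results of these data known. UMIs were summed over each gate and divided by the UMIs outside mitochondrial genes (CPM). Genes with a mean of at least 10 CPM were compared as log2 ratios with 10 CPM added. Beside listed genes, the 12 highest and 12 lowest were named, if 25% or more of the cells in the gate with the higher level held a UMI, leaving out rule genes, mitochondrial genes and predicted genes (Gm and Rik symbols). The 6 highest and 6 lowest were named against dividing cells. For shares of cells with a UMI, cells were thinned to 2000 UMIs, which left out 200 Eomes-zero neurons, 2 inhibitory cells and no member. No doublet caller was run. The computation of ratios and their intervals was tested on simulated counts with known folds. Promoter letters came from RefSeq tables of GRCm38.p6, which hold 6 of the 12 named higher genes. Python 3.11.15 with numpy 2.4.6, scipy 1.17.1, pandas 2.3.3 and matplotlib 3.10.9 was used. Alternatives covered the gene minimum, the UMI thresholds of the rule, the comparison set, the scale, the CPM added, the filter and thinning. Single values of some listed genes are not reported here.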

Additional observations from a re-analysis of the deposited data

How the results depend on the processing

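No paired analysis was possible because the library was 1 sample with no replicate. The number of genes over 2-fold higher in the members, 396, became 689 with 1 CPM added and 157 with a mean of at least 50 CPM. The number over 2-fold lower, 416, became 702 and 218 under these settings, 654 without barcodes over 2 times the median UMI count, and 648 with cells thinned to 2000 UMIs. The member share of 2.15% became 2.48% of barcodes with at least 2000 genes and 1.52% with at least 2 Eomes UMIs. The median log2 ratio of the mitosis genes, 1.49 from 1 gene, was -0.0521 without the filter on low values. The cause was not tested, except that the settings on the filter change which genes are counted. Higher genes made up 48.8% of all calls and between 41.8 and 54.1% under the alternatives. Proneural genes over 2-fold higher numbered 6 and between 4 and 7 under the alternatives, and neuronal and synaptic genes over 2-fold lower numbered 16 and between 14 and 18. The comparison set with few UMIs of Neurod1, Sstr2 and Sema3c, and the removal of barcodes rich in glial genes, were chosen after seeing the data. With 1 library, a difference between cell sets has no replicate check.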
